A study of Mus musculus with 20 samples.

Results

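The H3K27me3 peaks of Jmjd3 wild-type (WT) and Jmjd3 knockout (KO) cells were compared at day 5 of reprogramming with the FLAG control vector. The WT library held 6428 peaks and the KO library 5643, out of 10 H3K27me3 peak lists and 20 samples in the series. A peak was called shared if it overlapped a peak of the other list by at least 1 bp, and WT-only or KO-only if it did not. Both groups were early-passage mouse embryonic fibroblasts (MEFs) that received the 4 reprogramming factors of the OSKM cocktail (Oct4, Sox2, Klf4, c-Myc) and the FLAG vector, and were kept in embryonic stem cell medium with vitamin C. The protocol describes retroviral infection, while another label calls the delivery lentiviral. The labels give strain C57BL/6J-OG2 for Jmjd3+/+ and C57Bl6J for Jmjd3-/- cells, so by these labels strain and genotype cannot be told apart. The study describes littermate WT and KO MEFs without OG2 for another experiment, and whether they were used here is not given in the sources used here. The knockout was a conventional one, carried by all cells, and the labels call the day 5 cells intermediate reprogrammed cells.

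H3K27me3 is a histone mark laid down by the Polycomb repressive complex PRC2, mostly at CpG-rich promoters of developmental genes that a cell keeps silent. JMJD3, encoded by Kdm6b, and its relative UTX remove it. Fibroblasts keep the mark on regulators of other lineages, and reprogramming to pluripotency requires some of those genes to be opened while others stay silent. The comparison asks which regions carried a called peak with and without endogenous JMJD3.

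With a single library in each group there was no replicate check, and no p-value was computed. Bracketed ranges are 95% intervals for counting error alone, and treat peaks as independent although neighbours are not. The number of reads behind each list was not used here. The knockout could not be checked from peak positions, since neither list held a peak within 5 kb of a Kdm6b transcription start site (TSS); the nearest lay 8363 bp away in WT and 7981 bp in KO cells. Genes that fibroblasts express were looked up beside the cell label. None of 16 housekeeping genes had a peak in either list. Of 32 mesenchymal and fibroblast genes 26 had none (81.2%), near the 83.9% of all protein-coding genes, so that list does not bear on the cell label. Of 16 endothelial genes 9 had a peak in both lists, as did 4 of 16 macrophage and blood genes, against 11.97% of all genes, and Cebpe of the latter had a WT peak alone. The Cebpe peak (score 6.59) fell out when the WT list was cut by score to the length of the KO list.

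Sequences of peaks named in the text are given to show single members of each class. They are chosen examples, and their CpG numbers do not follow the order of the class medians given further on. They are the middle 120 bases of named peaks, on the plus strand of GRCm38 (the build also called mm10), with each CpG in capitals; for Sox21 the last 120 bases of the peak, inside the coding exon, are shown instead of the middle. Dmrt3 (chr19:25605567-25605686, outside genes), Zyg11a (chr4:108217792-108217911, exonic) and Gnaz (chr10:74968460-74968579, intronic) had WT-only peaks. Tlx2 (chr6:83069499-83069618, intronic) and Egr4 (chr6:85512499-85512618, exonic) had shared peaks among the best-scoring of both lists. Sox21 (chr14:118234895-118235014) and Pou3f2 (chr4:22487515-22487634), both exonic, had KO-only peaks.
Dmrt3: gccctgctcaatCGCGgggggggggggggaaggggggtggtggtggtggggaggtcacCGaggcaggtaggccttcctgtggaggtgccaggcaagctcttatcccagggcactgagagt
Zyg11a: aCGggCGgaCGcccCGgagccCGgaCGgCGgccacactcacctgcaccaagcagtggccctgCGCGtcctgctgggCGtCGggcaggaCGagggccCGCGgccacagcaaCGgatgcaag
Gnaz: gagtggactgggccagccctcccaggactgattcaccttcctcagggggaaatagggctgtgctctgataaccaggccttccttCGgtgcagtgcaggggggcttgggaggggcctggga
Tlx2: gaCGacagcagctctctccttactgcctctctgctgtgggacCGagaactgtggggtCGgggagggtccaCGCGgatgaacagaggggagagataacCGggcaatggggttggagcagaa
Egr4: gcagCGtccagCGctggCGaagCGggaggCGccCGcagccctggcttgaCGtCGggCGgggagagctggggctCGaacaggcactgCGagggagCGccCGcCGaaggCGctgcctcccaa
Sox21: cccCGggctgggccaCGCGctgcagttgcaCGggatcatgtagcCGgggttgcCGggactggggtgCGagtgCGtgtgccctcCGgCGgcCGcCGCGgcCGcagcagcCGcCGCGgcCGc
Pou3f2: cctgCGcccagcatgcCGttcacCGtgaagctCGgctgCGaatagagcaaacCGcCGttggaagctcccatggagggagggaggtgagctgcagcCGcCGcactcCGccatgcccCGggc
The windows of Zyg11a and Egr4 each hold 15 CpGs and that of Sox21 holds 18. The Gnaz window holds 1 CpG although its GC content is 63.3%, and the Dmrt3 window holds 3.

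The KO list was shorter than the WT list by a ratio of 0.878 (Poisson interval 0.847 to 0.910), and the covered length, 5.59 Mb against 6.36 Mb, gave the same ratio. The study reports the other direction for a different measure. Its H3K27me3 signal at day 5, scaled by a Drosophila spike-in, was higher in Jmjd3 KO than in WT cells. Every peak in both lists was 1000 bp wide, so width carries no information about how far the mark extends. The score that the authors' peak caller gave each peak, on a scale that was not stated and capped at 200, had a median of 13.2 in WT and 12.5 in KO cells. Peaks with a score of at least 20 made up 34.9% of the WT list and 31.0% of the KO list, and their numbers, 2243 and 1750, gave a lower ratio of 0.780 (0.733 to 0.831). The ratio per autosome ran from 0.797 on chromosome 13 to 0.942 on chromosome 7, so WT had more peaks on every autosome. The X chromosome held 45 WT and 42 KO peaks, 0.700% and 0.744% of the lists.

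Of the WT peaks, 2373 had no overlapping KO peak (36.9%, Wilson interval 35.7 to 38.1). Of the KO peaks, 1588 had no overlapping WT peak (28.1%, 26.98 to 29.3). When the WT list was cut by score to the 5643 peaks of the KO list, the shares were 31.5% (30.3 to 32.7) and 30.6% (29.5 to 31.9). Lists of equal length and nearly one-to-one overlap must give nearly equal shares, so these 2 values do not compare the genotypes. A KO peak lay within 5 kb of 407 of the WT-only peaks (17.2%), and a WT peak lay within 5 kb of 334 of the KO-only peaks (21.0%).

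Shared peaks were the well-scored ones. The median score was 8.26 in WT-only and 8.07 in KO-only peaks, against 21.4 (WT score) and 16.9 (KO score) in shared peaks. In the best-scoring decile of the WT list 2 of 642 peaks had no counterpart, and in that of the KO list 3 of 564. The share rose through every decile of both lists, to 77.1% (73.7 to 80.2) in the lowest decile of the WT list and 68.0% (64.0 to 71.7) in the lowest decile of the KO list. Among the best 500 peaks, 1 WT peak and 2 KO peaks lacked a counterpart anywhere in the other list. The plot of unshared peaks by score shows both curves.

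**Figure D1:**
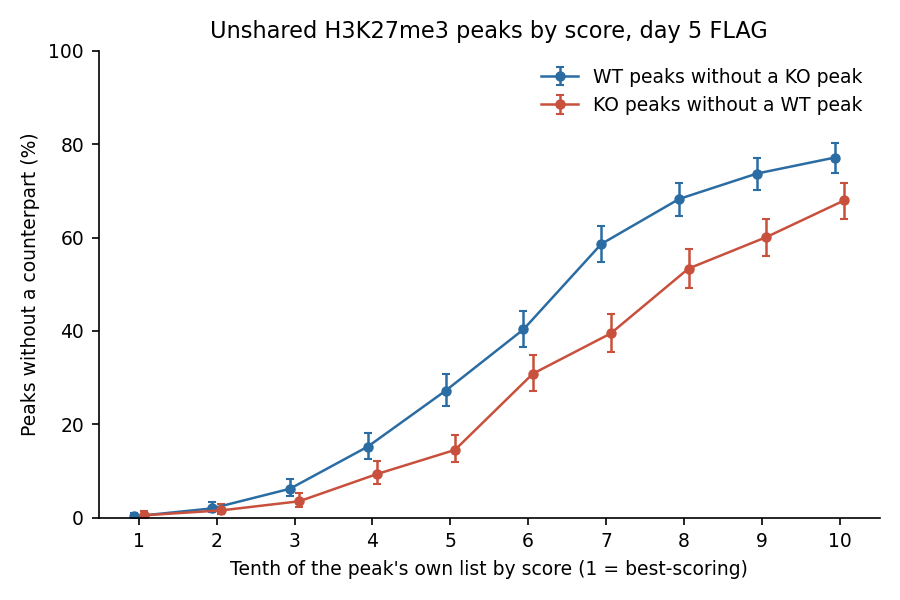
Share of peaks without an overlapping peak in the other day 5 FLAG list (%, y axis) by decile of the peak's own list by score (x axis, 1 is the best), for WT peaks (blue) and KO peaks (red), with 95% Wilson intervals. Both curves start below 1% and rise to 77.1% in WT and 68.0% in KO peaks.

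Overlapping peaks could still differ in position and rank. Over 3861 peaks that overlapped exactly 1 peak of the other list, the starts differed by a median of 200 bp, and 513 pairs (13.3%) were shifted by more than 500 bp. Ranks within the lists correlated with a Spearman coefficient of 0.743 over these pairs, as a description across regions of 2 libraries.

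The shared peaks with the best ranks in both lists were those of Gm10800, Tlx2, Aida, Egr4 and Amn. Tlx2 encodes a homeobox factor of neural crest derivatives, Egr4 a zinc finger factor of the early growth response family, and Amn a membrane protein needed for vitamin B12 uptake. Tlx2 ranked 4 in WT and 8 in KO cells, Egr4 9 and 6, and Amn 5 and 14. Their peaks had a GC content of 65.9%, 70.9% and 69.8%, while the Gm10800 and Aida peaks, with ranks of 1 and 1 and of 8 and 5, had 35.3% and 37.3%. All 5 were also called in each of the other 8 H3K27me3 lists. Regions prone to artefactual signal were not filtered out here, so a high rank alone does not show that these places carried the mark.

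The places with a high score in a single list were few. In the best-scoring 25% of each list, 28 WT peaks (1.74%, 1.21 to 2.51) and 18 KO peaks (1.28%, 0.809 to 2.01) had no counterpart, and all but 9 and 2 of these had a peak of the other list within 5 kb. At several loci, a WT-only and a KO-only peak of this quartile faced each other without touching, and these loci were picked out after the values were seen. The gap was 84 bp at Six3, a homeobox gene of the forebrain and eye, with ranks of 800 in WT and 802 in KO cells. It was 187 bp near Tmem33, 198 bp near Prmt8, an arginine methyltransferase of the brain, and 263 bp near Hrk, a pro-apoptotic BH3 protein. These regions were thus called in both genotypes and counted as unshared in both.

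The highest-ranked WT-only peak lay 4911 bp from the TSS of Dmrt3, a DM-domain transcription factor of gonad and spinal cord (chr19:25605127-25606126), at rank 409 with a score of 64.6. A second WT-only peak on an exon (chr19:25610577-25611576) had rank 552 and a GC content of 70.0%. The KO list had no peak within 5 kb of the Dmrt3 TSS. A further WT-only peak of the best quartile, 13989 bp from the TSS (chr19:25624027-25625026, rank 1356), did have a KO peak within 5 kb, and it was called in each of the other 8 lists. Within 5 kb of its TSS the other lists held 2 peaks in WT and 1 in KO MEFs, 2 in each day 5 list with JMJD3, and, at day 10 with FLAG, 1 in WT and none in KO cells. At day 10 with JMJD3 they held 1 in the WT and 2 in the KO list. A peak within 5 kb of the Dmrt3 TSS was therefore absent from both KO lists with FLAG and present in the other 3 KO lists, which does not hold for the peak farther along.

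By the same rule, 4 more genes had a WT-only peak and no KO peak within 5 kb of it. Gnaz, the alpha subunit of the Gz protein, had an intronic peak (chr10:74968020-74969019) at rank 997 with 14 CpGs in 1000 bp. Pcdh12, an endothelial protocadherin, had a peak 60 bp from its TSS at rank 1352. Zyg11a, a substrate receptor of a cullin ubiquitin ligase, had a peak 71 bp from its TSS (chr4:108217352-108218351) at rank 1533 with 108 CpGs, and Pkdrej, a polycystin relative of sperm, had an exonic peak (chr15:85820792-85821791) at rank 1595. The day 5 KO list with JMJD3 held a peak at each of these 5 places, so none of them lacked a call in every KO library. The Zyg11a peak was also called in MEFs and at day 10 in both genotypes.

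In the opposite direction 1 gene met the rule. Sox21, an HMG-box factor of neural progenitors, had a KO-only peak on its exon (chr14:118234015-118235014) at rank 1041 with a score of 29.1, and a second at chr14:118238415-118239414 at rank 1428. The nearest WT peak was 9247 bp from its TSS. Within 5 kb of the TSS the other lists held 2 peaks in WT and 4 in KO MEFs, 1 with JMJD3 at day 5 in WT and none in KO cells, none at day 10 with FLAG in either genotype, and with JMJD3 none in WT and 1 in KO cells. The MEF lists of both genotypes thus held Sox21 peaks. A higher-ranked KO-only peak, singled out after its values were seen, lay on chromosome Y (chrY:90814938-90815937) at rank 2 with the capped score of 200 and was called in no other list. Whether this call reflects the mark was not tested.

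Distance to a TSS separated shared from unshared peaks, and hardly separated the 2 unshared classes. The middle of 72.9% (71.5 to 74.3) of shared WT peaks lay within 5 kb of a TSS, against 42.6% (40.7 to 44.6) of WT-only and 43.3% (40.9 to 45.8) of KO-only peaks. WT-only minus shared was -30.3 percentage points (Newcombe interval -32.7 to -27.8), and KO-only minus WT-only was 0.679 points (-2.46 to 3.83). The share outside genes was 27.5% in shared, 45.0% in WT-only and 48.1% in KO-only peaks. The share on exons was 28.9%, 12.8% (11.5 to 14.2) and 9.07% (7.75 to 10.6), lower in KO-only than in WT-only peaks with intervals that did not overlap. Since shared peaks score higher, the comparison was repeated within quartiles of score. In the best quartile WT-only peaks differed from shared peaks by -0.694 points (-18.5 to 9.47), with 28 peaks behind the first value, and KO-only peaks by -16.1 points (-39.1 to 1.09), with 18. In the other 3 quartiles the differences lay between -23.2 and -13.5 points in both lists, with every interval below 0.

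In sequence too, shared peaks differed most from their surroundings. The median GC content was 57.1% in shared peaks (WT intervals), 49.6% in WT-only and 47.1% in KO-only peaks, against 45.2% to 46.5% in windows of the same length 10 kb away. The ratio of observed to expected CpGs had a median of 0.537, 0.282 and 0.259, against 0.193 to 0.197 in those windows. CpG-rich sequence, defined as a GC content over 50% with a ratio over 0.6, made up 38.8% (37.3 to 40.3) of shared, 10.0% (8.88 to 11.3) of WT-only and 6.17% (5.09 to 7.46) of KO-only peaks, and about 2.2% of the distant windows (2.15% to 2.21%). KO-only minus WT-only was -3.86 points (-5.53 to -2.13), so KO-only peaks were CpG-rich less often, while both classes lay above the distant windows.

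**Figure D2:**
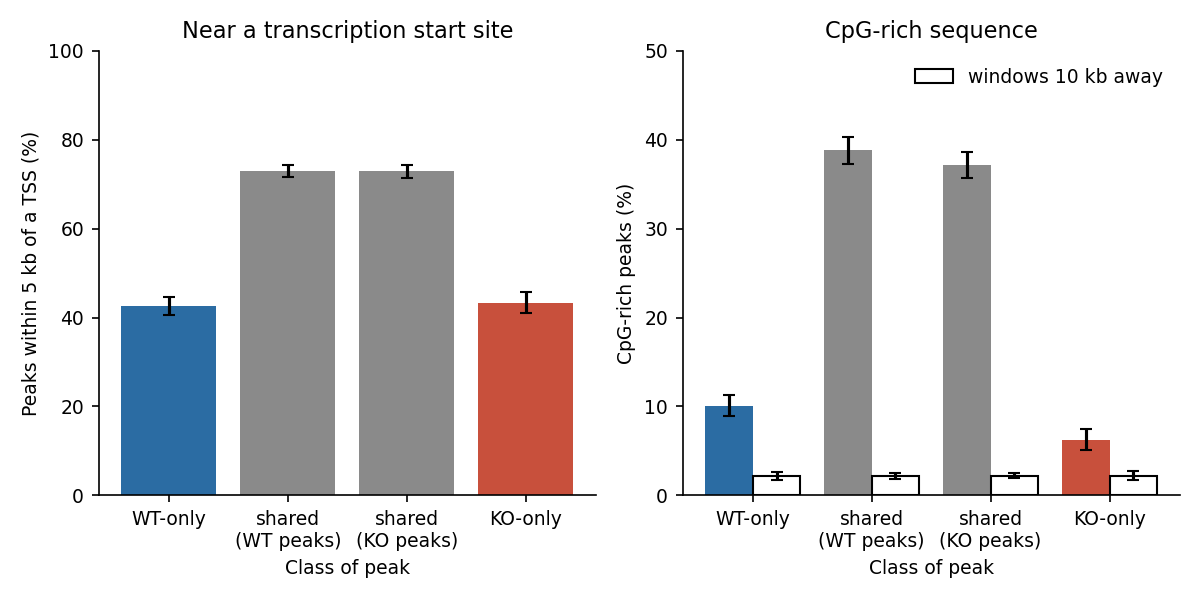
Left, share of peaks whose middle lies within 5 kb of a TSS (%); right, share of CpG-rich peaks (%, coloured) beside windows 10 kb away (white), for each class of peak on the x axis, with 95% Wilson intervals. Shared peaks stand at 72.9% and 38.8%, WT-only peaks at 42.6% and 10.0%, and KO-only peaks at 43.3% and 6.17%.

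CpG-rich peaks were kept more often within quartiles of score. They numbered 978 in the best and 111 in the lowest quartile of the WT list, and score was not held fixed inside a quartile. In the second quartile of the WT list 14.6% (11.7 to 18.0) of CpG-rich peaks and 20.4% (18.2 to 22.9) of the others had no KO counterpart, and in the lowest quartile 57.7% (48.4 to 66.4) and 76.8% (74.6 to 78.9). In the KO list the shares without a WT counterpart were 3.87% (2.46 to 6.04) and 13.8% (11.8 to 16.2) in the second quartile, and 32.7% (24.7 to 41.9) and 64.7% (62.1 to 67.3) in the lowest. The direction was the same in all 4 quartiles of both lists. In the best quartile of the WT list the intervals overlapped, with 1.43% (0.855 to 2.39) against 2.23% (1.33 to 3.70). Repeat-masked sequence covered over 50% of the bases in 1.35% of WT-only, 0.715% of shared and 2.96% of KO-only peaks.

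The KLF motif GGGNGTGG, counted on both strands, was found in 41.8% (40.3 to 43.4) of shared, 32.0% (30.2 to 33.9) of WT-only and 26.1% (24.0 to 28.4) of KO-only peaks, against 30.0%, 28.2% and 28.1% of the windows 10 kb away. The AP-1 motif TGANTCA, the recognition letters of FOS and JUN factors, was found in 14.1%, 19.5% and 20.7%, below the 24.3% to 25.6% of the distant windows in each class. KO-only minus WT-only was -5.89 points (-8.73 to -3.01) for KLF and 1.21 points (-1.32 to 3.78) for AP-1. These are counts of letters in windows that differ in GC content, and not of bound sites.

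KLF4 binding was measured by ChIP-seq at day 5 in WT cells with FLAG. KLF4 peaks overlapped 121 shared WT intervals (2.98%, 2.50 to 3.55), 33 WT-only (1.39%, 0.992 to 1.95) and 13 KO-only peaks (0.819%, 0.479 to 1.40). Pooled over scores both unshared classes lay below shared peaks, and KO-only minus WT-only was -0.572 points (-1.22 to 0.129). Within quartiles of score the intervals of WT-only and shared peaks overlapped, with 1.68% (1.00 to 2.80) against 2.19% (1.37 to 3.48) in the third quartile of the WT list and 1.32% (0.814 to 2.13) against 2.03% (1.03 to 3.95) in the fourth. In the third quartile of the KO list KO-only peaks stood at 0.368% (0.101 to 1.33) against 2.77% (1.87 to 4.08) of shared peaks, and in its other 3 quartiles the intervals overlapped, with 1.14% (0.620 to 2.08) against 1.69% (0.891 to 3.18) in the fourth. Positions of FLAG-tagged JMJD3 in OSKM cells fell in 31 shared, 12 WT-only and 8 KO-only peaks, 0.764%, 0.506% and 0.504%, with overlapping intervals.

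Protein-coding genes were then sorted by the lists that held a peak within 5 kb of a TSS. Of 21938 genes, 3524 (16.1%) had a peak in either list. Both lists had a peak at 2625 of these (74.5%, 73.0 to 75.9), the WT list alone at 562 (15.9%) and the KO list alone at 337 (9.56%). At equal list length the numbers were 2566, 460 and 396. A peak of the other list lay within 10 kb of a TSS at 52 of the 562 WT-only and 39 of the 337 KO-only genes. At least 2 peaks were found at 29 WT-only and 15 KO-only genes, so most of these genes rested on 1 peak.

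Lineage regulators mostly had a peak in both genotypes. The 39 Hox genes, which pattern the body axis, had peaks in both lists at 29, in WT alone at 6 and in KO alone at 2, so that 78.4% (62.8 to 88.6) of those with a peak had it in both, against 74.5% of all genes. Of 215 regulators in the homeobox (outside Hox), Pax, forkhead, GATA, T-box, Sox and bHLH lists, 174 had a peak in both lists, 10 in WT alone and 5 in KO alone, which is 92.1% (87.3 to 95.1) in both. In WT cells the median percentile rank of their best peaks, where lower is better, lay between 2.83 (GATA) and 23.1 (Pax). For all genes it was 32.7. Sharing rises with score, and no comparison at matched score was made. All 9 Pax genes, all 25 forkhead genes with a peak and all 5 GATA genes with a peak had one in both lists. At equal list length Gata2 had a KO peak alone. Of 64 Wnt, BMP/GDF and FGF ligands, 44 had a peak in both, 2 in WT alone and 3 in KO alone.

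**Figure D3:**
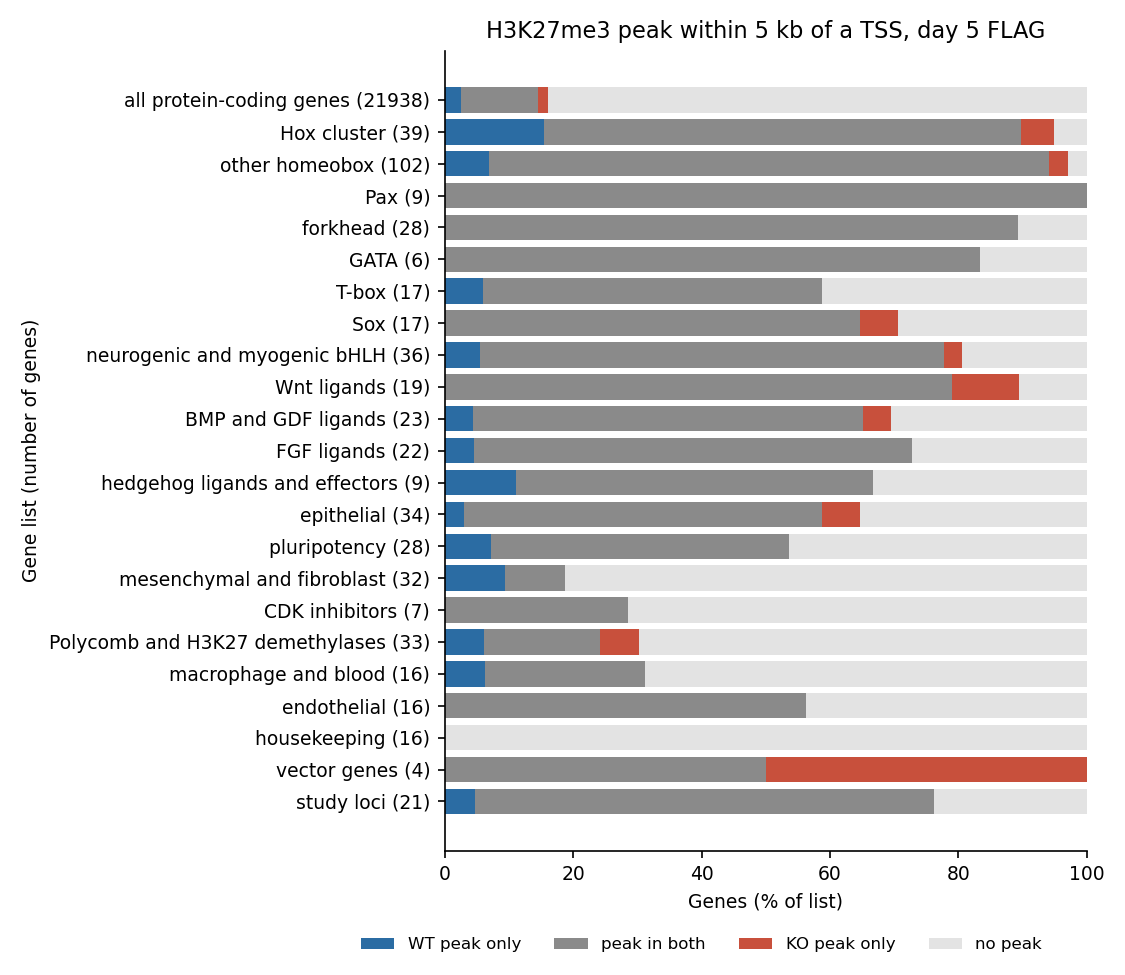
Share of the genes of each list (%, x axis) with a peak within 5 kb of a TSS in the WT list only (blue), both lists (grey), the KO list only (red) or neither (light grey), with the number of genes in brackets. Peaks in both lists make up most of the regulator lists, and housekeeping genes have none.

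Over the 4 Hox clusters, each taken with 5 kb on either side, 17 of 61 WT peaks (27.9%, 18.2 to 40.2) and 20 of 66 KO peaks (30.3%, 20.6 to 42.2) were unshared, against 36.9% and 28.1% of all peaks, so the clusters did not stand apart from the lists as a whole. The Hoxa cluster (chromosome 6) was the one with most unshared peaks, with 4 shared and 6 WT-only peaks in WT, and 5 shared and 7 KO-only peaks in KO cells. Hoxb (chromosome 11) had 16 shared and 4 WT-only WT peaks and 6 KO-only peaks, Hoxc (chromosome 15) 15, 2 and 3, and Hoxd (chromosome 2) 9, 5 and 4. Counted over all 10 lists, the Hoxa cluster held between 8 peaks (day 10 WT with JMJD3) and 21 (day 5 KO with JMJD3), and the day 5 FLAG lists held 10 peaks (WT) and 12 peaks (KO). Peaks are 1000 bp intervals, so a gap between them does not show that the mark was absent there.

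Along Hoxa, 5 of the 7 KO-only peaks lay from Hoxa7 to beyond Hoxa13, the posterior end. The shared KO peaks of the cluster, apart from that at Hoxa2, lay in the same stretch, so this position did not set KO-only peaks apart. A WT-only peak lay 695 bp from the TSS of Hoxa4 (score 9.27), and the best-scoring WT-only peak (22.5, chr6:52216359-52217358) 594 bp from that of Hoxa7 and within 5 kb of the annotated start of Hoxa3. KO-only peaks lay at Hoxa9 (383 bp, score 11.3, and a second of score 9.58), at Hoxa10 (chr6:52238957-52239956, score 16.7) and 195 bp from the TSS of Hoxa7 (chr6:52218407-52219406, score 17.1). A KO-only peak on the anterior side, near Hoxa4, scored 8.54, so the class was not confined to the posterior end.

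The genes of the Hoxa cluster varied in the other libraries too. Hoxa9 had no peak in the day 5 WT list with FLAG, and 1 or 2 peaks in all 9 others. Hoxa4 had 1 peak in WT and none in KO MEFs, 2 in each genotype at day 5 with JMJD3, 1 in each at day 10 with FLAG, and with JMJD3 none in the WT and 1 in the KO list.

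**Figure D4:**
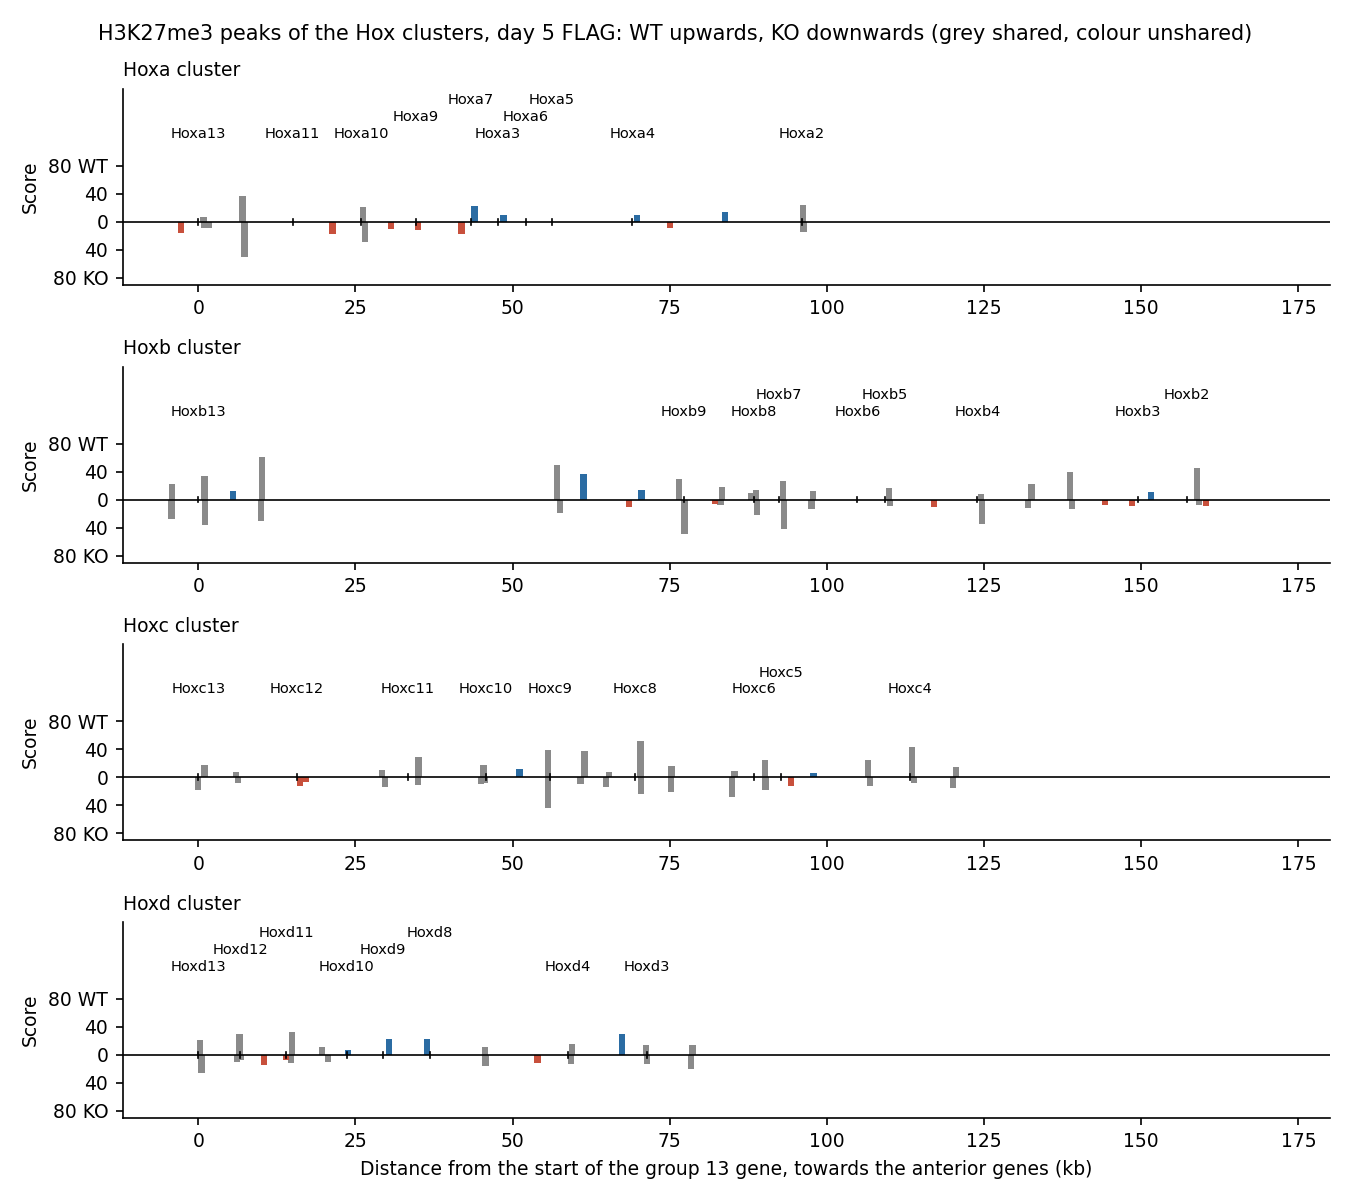
Peaks of the 4 Hox clusters at day 5 with FLAG, drawn to scale as 1 kb bars by distance from the start of the group 13 gene (kb, x axis), with score upwards for WT and downwards for KO cells (y axis). Grey bars are shared peaks, blue are WT-only and red are KO-only, and black ticks mark annotated starts. Not every peak of the clusters is drawn. At Hoxa9 red bars stand without a blue or grey one, with scores of 11.3 and 9.58, and at Hoxd8 and Hoxd9 blue bars do, with scores of 22.5 and 22.0.

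Hoxd8 and Hoxd9 had WT-only peaks with scores of 22.5 and 22.0, 102 bp and 940 bp from their TSSs, on exons with 73 and 95 CpGs. KO peaks were more than 8 kb away from both TSSs (8858 bp and 8767 bp). Hoxc12 had 2 overlapping KO-only peaks, with scores of 12.9 and 7.14, and its nearest WT peak was 9666 bp away. These Hox genes had peaks of the opposite genotype elsewhere. Hoxd9 had 2 peaks in the WT and 4 in the KO list of MEFs, and Hoxc12 had 3 in the WT and none in the KO list.

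Other homeobox genes with a WT peak alone were Irx1, Nkx2-3, Alx1, Irx2, Meis1, En1 and Emx2, and Pou3f2 was among those with a KO peak alone. The Emx2 peak (score 6.79) fell out at equal list length. Irx1, a regulator of proximal-distal patterning, had a WT peak of rank 1941 (score 23.4) 3807 bp from its TSS. Its nearest KO peak was 852864 bp away. In the other lists Irx1 had 1 peak in both MEF lists, in both day 5 lists with JMJD3 and in the day 10 KO list with JMJD3, and none in the other 3. Nkx2-3, needed for gut and spleen development, had a WT score of 21.4, with a KO peak 6762 bp from its TSS.

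Pou3f2, a POU factor of neurons, had a KO peak of rank 2106 (score 16.9) over its single exon (chr4:22487075-22488074), with 83 CpGs, and a WT peak 7385 bp from its TSS. It had peaks in 7 of the other 8 lists, with 3 in WT and 1 in KO MEFs.

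In the bHLH list, which holds neurogenic and myogenic regulators, Neurod6 (2 peaks, best score 8.14) and Atoh8 (score 13.9) had WT peaks alone and Msc a KO peak alone (score 8.50). In the T-box list Tbx10 had a WT peak alone, 126 bp from its TSS with a score of 10.9.

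Among signalling genes the unshared peaks scored low. Hhip, which binds and restrains hedgehog ligands, had 3 WT-only peaks with a best score of 9.59, the most of any WT-only gene, and its nearest KO peak was 270687 bp away. Its peaks at chr8:80052964-80053963 and chr8:80053414-80054413 overlapped each other. In the other lists Hhip had 1 peak in WT MEFs, in day 5 WT cells with JMJD3 and in day 10 KO cells with FLAG, and none in the remaining 5. The ligands with a KO peak alone were Wnt2 (score 9.58), Wnt5a (6.86) and Gdf5 (7.56), and those with a WT peak alone were Lefty2 (10.7) and Fgf6 (10.2). Wnt2 had 1 peak in every day 10 list and in the day 5 KO list with JMJD3, and Gdf5 had none in the other 8 lists.

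Genes of the epithelial programme, which fibroblasts switch on early in reprogramming, had peaks in both lists at 19 of 34. That is 86.4% (66.7 to 95.3) of the 22 with any peak, against 74.5% of all genes with a peak. Grhl3 had a WT peak alone (score 12.6), and the keratins Krt7 and Krt19 had KO peaks alone (scores 9.34 and 6.95). Cdh1, the E-cadherin gene, ranked 1147 in WT and 915 in KO cells, and Epcam, another cell adhesion gene, 490 and 177. Ocln, a tight junction protein, ranked 406 and 441, Dsp of desmosomes 2611 and 2042, and Pkp1 of desmosomes 5581 and 2890. All 5 kept a called peak in the knockout.

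Of 28 pluripotency genes, 13 had a peak in both lists, 2 in WT alone and none in KO alone. The 2 are 13.3% of the 15 with any peak, near the 15.9% of all genes with a peak. They were Nanog, with a score of 7.61 at rank 5308, and Klf2, with 12.9 at rank 3287. Nanog had a peak in WT MEFs and in none of the other 7 lists, while Klf2 had 1 in all 4 day 10 lists and in the day 5 WT list with JMJD3. The peaks with the best ranks in this group were those of Utf1 (13 in WT, 88 in KO), Fgf4 (115 and 20), Esrrb (201 and 118), Lin28a (237 and 546), Mycn (253 and 346) and Sall4 (333 and 317). Sall1 ranked 2708 and 2166, Nr5a2 3181 and 1755, Tdgf1 3721 and 2635, and Tdh 2369 and 2962. Dppa4, Dppa5a, Zfp42 and Tfcp2l1 had no peak within 5 kb of a TSS in either list.

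At the Cdkn2a locus, which encodes the senescence proteins p16 and p19, both lists had a peak within 5 kb of a TSS without overlap. The WT peak (chr4:89276952-89277951) had rank 3438 and the KO peak (chr4:89278075-89279074) rank 4862. Cdkn2b had none in either list. Cdkn1c, another inhibitor of cyclin-dependent kinases, had 2 peaks in each list, with best ranks of 259 and 345.

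In the mesenchymal and fibroblast list, 3 genes had a WT peak alone and none had a KO peak alone. Any peak was found at 6 of the 32 genes (18.8%), near the 16.1% of all genes, of which 15.9% had it in WT alone and 9.56% in KO alone. The 3 genes were Twist2 (score 15.2), Prrx2 (9.16) and Snai1 (7.87), all of them mesenchymal transcription factors, and their nearest KO peaks were 31044 bp, 33312 bp and 257485 bp away. Neither MEF list had a peak at any of the 3. At day 10 with FLAG, Twist2 and Snai1 had a peak in KO cells alone and Prrx2 in WT cells alone. Thy1, Pdgfra and Lox had peaks in both lists.

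Polycomb genes and H3K27 demethylases had a peak in both lists at 6 of 33, and any peak at 30.3%, against 16.1% of all genes. The 6 were among 10 with any peak (interval of the share 31.3% to 83.2%), an interval that includes the 74.5% of all genes. Cbx8, a Polycomb chromobox protein, ranked 184 in WT and 211 in KO cells, and Bmi1 828 and 199. Pcgf5 and Rybp had a WT peak alone and Phf19 and Pcgf3 a KO peak alone, with scores between 6.77 and 9.70. The genes carried by the reprogramming vectors need care, since reads of the viral copies cannot be separated from the endogenous exons. Sox2 ranked 2420 in WT and 443 in KO cells and Klf4 2405 and 2019, all on exons. Pou5f1 (score 6.84, in an intron) and Myc (2 peaks, best score 7.56) had KO peaks alone.

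Genes with at least 2 WT-only peaks and no KO peak also included Stra6, the retinol uptake receptor, with a best score of 19.8, Rtn4rl2, a Nogo receptor relative, with 19.6, and Grik2, a kainate receptor subunit, with 19.2. Otof and 1700001C02Rik shared 2 WT-only peaks with a best score of 17.1, and Hoxa3 shared its pair with the overlapping Gm28308. Among KO-only genes, Art5 had a best score of 13.2, Lrmda 12.2, Dnah2, an axonemal dynein, 11.4, Hectd2 10.4, Ctxn2 8.52, AU021092 8.03 and Chdh, choline dehydrogenase, 7.90. Apart from Dmrt3, Gnaz and Sox21, none of the genes with several one-sided peaks reached a score of 25. Lrmda had no peak in the other 8 lists.

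Neighbouring peaks of both lists were chained into domains when 5 kb or less apart. Of 6870 domains, 3830 (55.8%) held peaks of both lists, 1847 (26.9%) WT peaks alone and 1193 (17.4%) KO peaks alone. A single peak made up 95.1% of WT-only and 95.9% of KO-only domains, and 2 in each direction had 3 peaks. The WT-only pair was at Hhip and at Scarf2, a scavenger receptor gene (chr16:17798049-17807648, best score 18.1). The Scarf2 domain held 3 peaks in both genotypes at day 10 with FLAG and none in either MEF list. The KO-only pair had no protein-coding TSS within 5 kb, at chr8:107915294-107921793 and chr5:3907724-3909323. The second spans 1600 bp, and peaks of a domain can overlap, as at Hhip and Hoxc12, so peak numbers can overstate separate sites. The next by number of peaks were Dmrt3, Gnaz and Zic4 in WT, and Sox21, a region on chromosome 15 (chr15:39643408-39649607) and Hoxc12 in KO cells. Outside its WT-only domain, Zic4 also had a shared peak (rank 1853 in WT and 3794 in KO cells) and a KO-only peak of rank 2418. The largest domains held both lists, with 7 WT and 7 KO peaks from Hoxb6 to Hoxb9 and from Hoxc8 to Hoxc10, and 5 and 7 from Hoxd10 to Hoxd13.

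The other 8 H3K27me3 lists served to ask whether WT-only and KO-only peaks belonged to a genotype. They come from MEFs, from day 5 with JMJD3 and from day 10 with FLAG or JMJD3, in WT and KO cells. Of shared peaks (WT intervals) 97.0% were called in at least 1 of them, against 66.0% (64.1 to 67.9) of WT-only and 62.0% (59.6 to 64.4) of KO-only peaks. At least 4 of the 8 lists called 77.3% of shared, 19.4% of WT-only and 14.1% of KO-only peaks. WT-only and KO-only peaks thus recurred far less often than shared peaks, and KO-only the least. Shared peaks score higher and were already called in 2 libraries, so a lower return was built into the unshared classes. This contrast does not bear on genotype. In the best quartile 100% of WT-only, 100% of shared (WT intervals) and 94.4% of KO-only peaks were called in at least 1 of the 8.

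**Figure D5:**
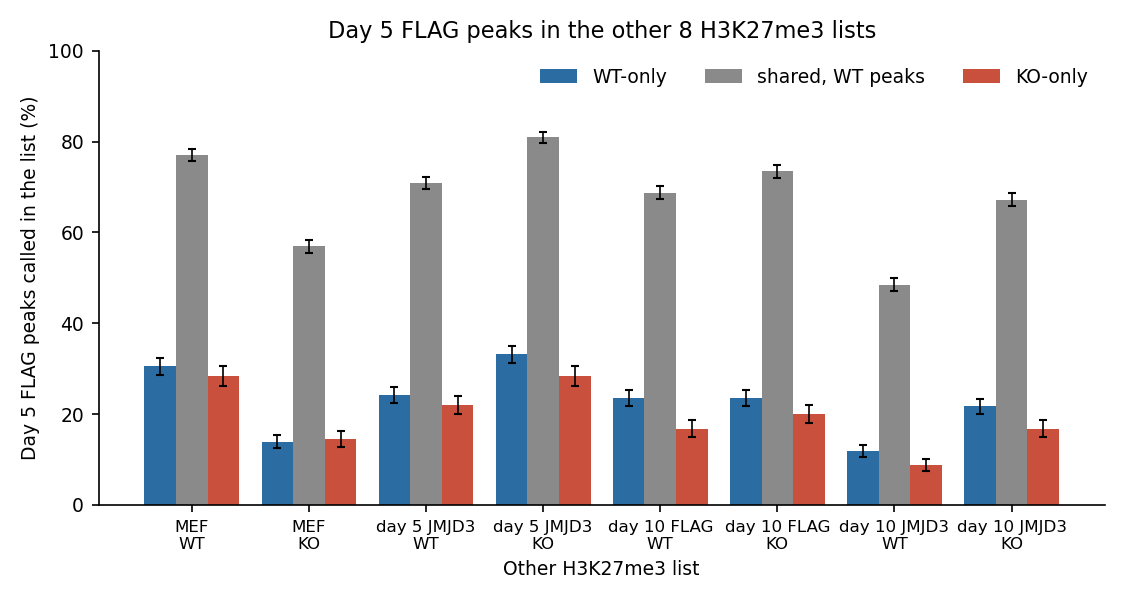
Share of the day 5 FLAG peaks (%, y axis) that overlapped a peak of each of the other 8 H3K27me3 lists (x axis), for WT-only (blue), shared (grey, WT intervals) and KO-only peaks (red), with 95% Wilson intervals. Shared peaks lead in every list, and both unshared classes stand lower, with 30.5% and 28.4% in WT MEFs and 13.9% and 14.4% in KO MEFs.

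In the full lists the return of unshared peaks was first given by genotype. In MEFs, 30.5% of WT-only and 28.4% of KO-only peaks were called in the WT list, and 13.9% and 14.4% in the KO list. At day 10 with FLAG, WT-only peaks were called in 23.5% of cases in each genotype, and KO-only peaks in 16.8% in the WT and 20.0% in the KO list. At day 5 with JMJD3, 24.1% of WT-only peaks were called in the WT and 33.2% in the KO list, and 22.0% and 28.3% of KO-only peaks. The lists differ in length, from 3045 to 6954 peaks, and the order within each pair followed the longer list, except for WT-only peaks at day 10 with FLAG.

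To lessen the weight of list length, peaks were taken that were called in exactly 1 genotype of a pair and the share called in the KO list was compared. In MEFs this share was 20.9% for KO-only and 15.7% for WT-only peaks, a difference of 5.29 points (Newcombe interval 0.339 to 10.4). At day 10 with FLAG it was 57.7% and 49.9%, a difference of 7.76 points (0.962 to 14.4). At day 5 with JMJD3 it was 63.5% and 67.5%, a difference of -3.998 points (-10.2 to 2.07), and at day 10 with JMJD3 0.114 points (-6.66 to 6.53). In the lists with JMJD3 both intervals thus included 0. In the best quartile, which leaves few peaks, the differences were 17.9 points (-12.3 to 52.4) in MEFs, 55.6 (-1.32 to 81.1) at day 10 with FLAG, -33.3 (-64.2 to 6.70) at day 10 with JMJD3, and -63.9 (-86.3 to -8.50) at day 5 with JMJD3, the last over 4 KO-only and 9 WT-only peaks. With all 10 lists cut to 3045 peaks the first 2 differences were 16.0 points (5.69 to 26.0) and 10.99 points (1.29 to 20.4). At that length, in MEFs, 38.8% of WT-only peaks were called in the WT and 30.3% in the KO list, and 33.1% and 33.4% of KO-only peaks. At day 10 with FLAG the shares were 42.8% and 40.3% of WT-only, and 27.4% and 31.3% of KO-only peaks. With JMJD3 the shares were 40.6% and 44.9% of WT-only, and 32.4% and 34.6% of KO-only peaks at day 5, and 35.6% and 41.4%, and 27.2% and 31.6%, at day 10. The intervals in the 2 genotypes overlapped in each of these cases except for WT-only peaks in MEFs, which were called more often in the WT list.

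The 28 best-scoring WT-only peaks were called in 1 to 8 of the other 8 lists, with a median of 5, and 27 of them in the day 5 KO list with JMJD3. In MEFs 23 were called in the WT and 11 in the KO list, and at day 10 with FLAG 19 and 18. Of the 18 best-scoring KO-only peaks, 14 were called in WT and 10 in KO MEFs, 9 and 13 at day 10 with FLAG, and 12 and 10 at day 5 with JMJD3. A single one, on chromosome Y, was called in none of the 8. All 28 and 17 of the 18 were thus called in at least 1 other library.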

How the data were processed

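ChIP-seq peak lists for H3K27me3 were used, with day 5 lists for KLF4 (WT, FLAG) and for FLAG-tagged JMJD3 (OSKM) as further readouts. The study's methods name bowtie2 and mm10 for alignment (the submitters' processing notes give Bowtie2 2.2.0), DFilter for the H3K27me3 peaks and MACS2 for the rest, 1 call per library. Drosophila chromatin served as spike-in, and the study scaled its mouse H3K27me3 reads by the number of Drosophila reads. Whether this scaling entered the peak calls is not given in the sources used here, so peak numbers do not measure how much of the mark a cell carried. The deposited H3K27me3 lists hold positions and a score of unstated scale, which was used to order or threshold peaks inside a list. Read totals were not analysed here, and sequencing depth, which moves the number of calls, cannot be told apart from genotype.

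Peaks were shared at an overlap of at least 1 bp. Genes were assigned by the distance of the peak middle from a TSS (77221 TSSs, GENCODE M21 basic transcripts, 5 kb), and sequence was read from GRCm38.p6. Shares carry Wilson, differences Newcombe and ratios Poisson intervals at 95%. Groups came from the labels. The comparison and the 22 gene lists (507 symbols, all matched) were chosen with earlier results of these data known. Genes were named by rule: unshared peaks of the best 25% with no peak of the other list within 5 kb and a protein-coding TSS within 5 kb (up to 10 each way, of which 5 WT and 1 KO existed), the 5 shared peaks of best summed rank, the 10 genes with most one-sided peaks each way, list members with one-sided peaks, loci the study discussed, vector genes, and the 5 domains with most one-sided peaks each way. Some genes that met these rules are not reported here. Python 3.11.15, pandas 2.3.3, pysam 0.24.0 and samtools 1.23.1 were used. Overlaps were checked against bedtools 2.31.1, and on simulated lists of 6428 and 5643 peaks all 4000 planted shared peaks were recovered. Alternatives covered the overlap rule, list length, score, autosomes, TSS set and domain distance. Those on repeat-masked peaks (over 50% of bases) and on position in the best quartile were added after the data were seen.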

Additional observations from a re-analysis of the deposited data

Results flagged for a closer look

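The KO to WT ratio of peak numbers turned direction between conditions, which was not tested since each group had 1 library. It was 0.591 in MEFs (4113 KO against 6954 WT peaks) and 0.878 at day 5 with FLAG, and 1.05 at day 10 with FLAG (5376 KO against 5131 WT peaks). With JMJD3 it was 1.29 at day 5 (6539 against 5064) and 1.602 at day 10 (4878 against 3045). No other rule for a closer look could be applied, since outliers need 4 or more samples in a group.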

How the results depend on the processing

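Of 68 values recomputed under another setting, 36 stayed within their counting interval (shares, ratios and differences) or within 1.5 times (numbers of genes and domains), 31 moved and 1 reversed. The peak ratio moved to 0.780 at a score of at least 20. The shares of WT and KO peaks without a counterpart were 45.7% and 38.1% at an overlap of at least 50%, 34.6% and 25.5% when a peak within 1 kb counted, 30.6% and 22.2% within 5 kb, 31.5% and 30.6% at equal length, 27.7% and 17.6% in the better-scoring 50%, and 22.4% in both with lists of 3045 peaks. The shares near a TSS in WT-only, shared and KO-only peaks were 20.9%, 50.7% and 18.6% within 1 kb, 32.4%, 64.4% and 31.3% with protein-coding TSSs, 82.1%, 82.8% and 66.7% in the best quartile, and 45.4% in WT-only peaks at equal length. CpG-rich shares in the best quartile were 50.0%, 61.1% and 16.7%, and shares with a KLF4 peak within 1 kb were 3.96%, 7.28% and 3.46%. Within 1 kb of a TSS 1711 genes had a peak in both lists. With lists of 3045 peaks the difference between KO-only and WT-only peaks was 16.0 points in MEFs, and at day 10 with JMJD3 it reversed to -1.46 from 0.114 points, both with intervals that include 0. The cause was not tested. No paired analysis was possible because the WT and KO groups compared, day 5 with FLAG, had 1 library each and so form a single pair. Pairing WT and KO libraries over the other conditions asks another question and was not done. Read totals were not analysed here, so the limit that depth sets on these calls is not given.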
